A study of Homo sapiens with 24 samples.

Results

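The genes described here are the interleukins and interleukin receptors of 4 diffuse large B-cell lymphoma (DLBCL) lines in which the transcription factor FOXP1 had been silenced. They were taken by name, as every gene whose symbol on the array begins with IL and a digit, which gave 92 of the 30142 genes measured. Of these, 44 encode cytokines, 42 receptor chains and 4 soluble regulators that hold a cytokine or block its receptor. The remaining 2 are IL4I1, a secreted L-amino-acid oxidase, and IL8RBP, a pseudogene, which encode neither a cytokine nor a receptor chain. Symbols are those of the array design, and where they have changed the current name follows (IL28RA is now IFNLR1, IL1F7 is now IL37, IL8RB is now CXCR2). IL28A and IL28B, and IL8RA, IL8RB and IL8RBP, have related sequences, so their probes may share signal and their values are uncertain. Whether they do was not tested.

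DB and K422 are lines of the germinal centre B-cell-like subtype (GCB-DLBCL), and HBL-1 and OCI-Ly3 are lines of the activated B-cell-like subtype (ABC-DLBCL). Each line received 1 µM of siFOXP1_308 or siFOXP1_309 by Nucleofection, and control cells received a non-targeting low-GC duplex (siCtrl). RNA was taken after 48 h from 3 biological replicates of each siRNA in each line, and silenced RNA was hybridised against siCtrl RNA of the same line on 24 2-colour arrays, 6 per line. Silenced RNA carried Cy3 and siCtrl RNA carried Cy5 on every array, so an effect of the dye and an effect of silencing cannot be told apart. The silencing was transient and partial, and each subtype was represented by only 2 lines.

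Interleukins are secreted proteins through which leukocytes signal to each other. Most bind receptors built from a private chain and a shared chain (the common gamma chain IL2RG for IL-2, IL-4, IL-7, IL-9, IL-15 and IL-21, gp130 for IL-6 and its relatives, IL10RB for several IL-10 relatives and IL12RB1 for IL-12 and IL-23), which activate JAK kinases and STAT factors. Receptors of the IL-1 and IL-17 families signal through other adaptors, among them MYD88 and TRAF3IP2. ABC-DLBCL is known for constitutive NF-κB activity and for autocrine IL-6 and IL-10 that act through JAK and STAT3.

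FOXP1 itself was lower on every array, and its mean log2 ratio was -1.74 ± 0.55 for HBL-1, -1.96 ± 0.54 for OCI-Ly3, -2.00 ± 0.79 for DB and -1.34 ± 0.47 for K422 (SD, n = 6 arrays). The mean fall was larger with siFOXP1_309 than with siFOXP1_308 in each line. The B-cell genes CD79A, CD79B, MS4A1, PAX5 and CD22 were well above background on all arrays of all lines. Of 5 germinal centre genes, MME was detected in DB and K422 and on no array of HBL-1 or OCI-Ly3, and MYBL1 and SERPINA9 were dimmer in the ABC-DLBCL line of each scan. BCL6 and LMO2 were well above background on all arrays of all lines, with LMO2 at 9.84 in OCI-Ly3 and 9.17 in DB. Of 4 activated-type genes, IRF4 and CCND2 were detected in HBL-1 and OCI-Ly3 only, while PIM2 and BATF were well above background on all arrays of all lines. Of 4 T-cell genes, CD3D and CD3G were bright in K422 (siCtrl levels 11.7 and 12.8) and at background in the other lines, CD3E was detected on 2 to 6 arrays of each line, and CD2 on at most 3. All 3 NK-cell genes were at background throughout, and among 3 myeloid genes LYZ was at background, CSF1R was detected everywhere and CD14 was detected on 0 to 6 arrays of a line. Among 4 stromal or endothelial genes, PECAM1 was detected on all 6 arrays of DB, K422 and HBL-1 and on 1 of OCI-Ly3. Its siCtrl level in HBL-1 was 11.15. COL1A1, COL1A2 and VWF were at background throughout. The part of these other cell types' genes in the results was not tested.

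Part of the family was detected in siCtrl cells of these lines. A probe was called well above background where the scanner software flagged it so, and 46 of the 92 members reached this in siCtrl cells on all 6 arrays of at least 1 line (17 cytokines and 27 receptor chains among them). A further 16 members were never well above background in either channel on any array, and 30 were so on some arrays only. In siCtrl cells OCI-Ly3 had 39 members detected on all arrays (42.4%), HBL-1 had 32 (34.8%), DB had 23 (25%) and K422 had 21 (22.8%), beside 49.6% to 54.4% of all genes in the 4 lines. In bulk RNA, fewer cells that express a gene and less RNA per cell cannot be told apart. Receptor chains were detected in larger number than cytokines, with 23 of 42 receptors and 14 of 44 cytokines in OCI-Ly3, 19 and 11 for HBL-1, 15 and 6 for DB, and 13 and 6 for K422. Among the 16 never detected were IL3, IL5, IL9, IL13 and IL25, cytokines of T cells, innate lymphoid cells and epithelium, and the receptor chain IL5RA.

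A core of 16 members was detected on all siCtrl arrays of all 4 lines. It held 11 receptor chains (IL4R, IL9R, IL10RA, IL10RB, IL11RA, IL12RB1, IL17RA, IL20RB, IL21R, IL27RA and IL28RA), 3 cytokines (IL16, IL23A and IL27), the IL-18 inhibitor IL18BP, and IL4I1. A second set of 11 reached all 6 arrays in both ABC-DLBCL lines but in neither GCB-DLBCL line, namely IL4, IL6, IL7, IL10, IL12A, IL15, IL18, IL2RB, IL3RA, IL6R and IL15RA. OCI-Ly3 alone added IL12B, IL19, IL1R2, IL2RA, IL8RB, IL18R1 and IL18RAP, and DB alone added IL1A and IL7R. K422 alone added IL1F7 and HBL-1 alone added IL6ST.

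**Figure D1:**
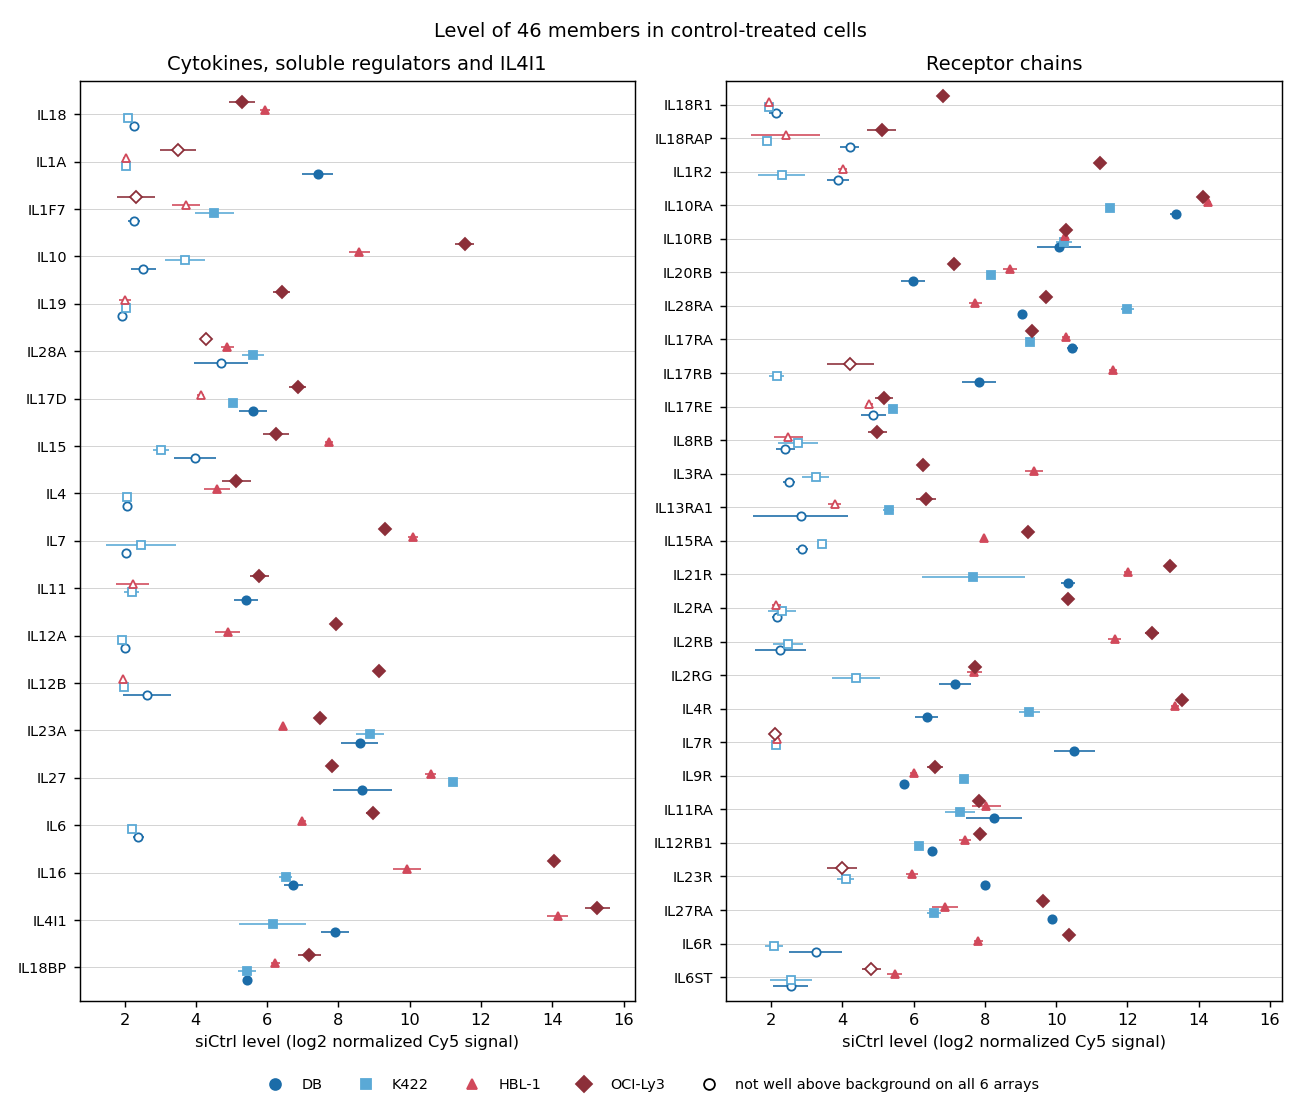
siCtrl level (log2 of the normalized Cy5 signal, mean and SD over 3 replicates) of the 46 members detected on all 6 arrays of at least 1 line, grouped by family, with open symbols where a line did not reach this. IL6, IL7, IL10, IL2RB and IL6R have filled symbols in HBL-1 and OCI-Ly3 only, and signals of different probes are not on a common scale.

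Levels in siCtrl cells were compared only between lines scanned together, OCI-Ly3 with DB and HBL-1 with K422, with limma and 3 values per line. The level was the log2 Cy5 signal after quantile normalization of the mean of both channels (Aquantile). Since each comparison sets 1 ABC-DLBCL line against 1 GCB-DLBCL line, the subtype and the line cannot be told apart. At a 2-fold difference and an adjusted p under 0.05, 29 members were higher in OCI-Ly3 than in DB (31.5% of members, beside 12.1% of all genes) and 8 were lower (8.7%, beside 14.2%). In HBL-1 against K422, 25 were higher (27.2%, beside 11.7%) and 9 lower (9.78%, beside 13.9%). Some of these calls rest on probes undetected in a line, where only a lower bound on the fold was measured. Such bounds, larger for members named below, were 1.03 for IL6ST, 1.04 for IL22RA1, 1.17 for IL8RB, 1.3 for IL4 and 1.46 for IL18 in OCI-Ly3 over DB. IL1B, called lower in OCI-Ly3 than in DB, was well above background on no siCtrl array of either line. The median log2 difference over all members was 0.18 and 0.05. In all, 18 members were higher in both comparisons (4.63% of all genes were), and only IL23A was lower in both (4.3% of all genes were).

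The receptor chains IL2RB, IL15RA, IL6R and IL3RA were well above background on all siCtrl arrays of both ABC-DLBCL lines and on none of the GCB-DLBCL lines. Other chains of the same receptors did not share this pattern in full. IL6ST, the gp130 chain used with IL6R, came near it, detected on 6 siCtrl arrays of HBL-1, 4 of OCI-Ly3 and none of DB or K422. IL2RG was detected on 6 siCtrl arrays of DB and 4 of K422, CSF2RB, the beta chain used by IL-3, on 6 and 5, and IL2RA in OCI-Ly3 only. IL2RB, the signalling chain shared by IL-2 and IL-15, had a level of 12.69 ± 0.19 in OCI-Ly3 (SD, n = 3) and was not well above background on any DB array, a difference of at least 244-fold (limma adjusted p = 5.89e-10). HBL-1 stood at 11.64 ± 0.19 and K422 again at background, at least 214-fold (adjusted p = 1.9e-09). Such bounds set the brighter line against the dimmer probe's own signal or the lowest signal counted as detected on each array, whichever was higher. IL15RA, which presents IL-15, was at least 21.8-fold higher in OCI-Ly3 than in DB and at least 16.7-fold higher in HBL-1 than in K422. For IL6R, the IL-6-binding chain, the bounds were 48.5-fold and 15.1-fold, and for IL3RA 2.82-fold and 44.6-fold.

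IL4R and IL21R were detected in every line, so their differences were measured on both sides. IL4R had levels of 13.54 ± 0.04 in OCI-Ly3 and 6.36 ± 0.33 in DB, a log2 difference of 7.18 ± 0.18 (SE; adjusted p = 1.37e-10), and of 13.33 ± 0.12 in HBL-1 and 9.25 ± 0.30 in K422 (4.08 ± 0.18, adjusted p = 1.44e-08). IL21R differed by 2.86 and 4.35, with a wide spread in K422 (SD 1.44). IL10RA was bright everywhere and higher in HBL-1 than in K422 by 2.74 (adjusted p = 5.25e-09), while OCI-Ly3 exceeded DB by 0.75, under the 2-fold limit. IL10RB, its partner chain, did not pass in either comparison (0.21 ± 0.25 and 0.03 ± 0.25, SE).

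Other receptors differed from line to line. IL7R was bright in DB (10.51 ± 0.58) and at background in the other 3 lines, at least 79.3-fold above OCI-Ly3 (adjusted p = 2.22e-10). IL17RB, a receptor of IL-25, was at least 208-fold higher in HBL-1 than in K422, yet lower in OCI-Ly3 than in DB by 3.62 on the log2 scale. IL2RA and IL1R2, the IL-2 receptor alpha chain and the decoy receptor of IL-1, exceeded DB in OCI-Ly3 by at least 47.6-fold and 88.8-fold. IL28RA, the private chain of the interferon lambda receptor, ran the other way in HBL-1, with 7.73 against 12 in K422 (a log2 difference of -4.27, adjusted p = 6.96e-10). IL13RA1, IL17RA, IL17RB and IL23R were the 4 members called with opposite signs in the 2 comparisons. In HBL-1 against K422, the IL13RA1 call was lost under 7 of 13 alternatives, among them leaving out any 1 replicate of either line. The IL17RA call there was lost under 4 of 13.

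Several cytokines also differed. IL10 had a level of 11.55 ± 0.27 in OCI-Ly3 and was on no DB array well above background, at least 111-fold (adjusted p = 9.23e-10), and in HBL-1 it was 4.89 above K422 (adjusted p = 1.56e-07). IL6 exceeded DB by at least 18.4-fold in OCI-Ly3 and K422 by at least 8.51-fold in HBL-1, and IL7 by at least 23.6-fold and 73.2-fold. IL16, a chemoattractant for CD4+ cells, was measured in every line, at 14.04 for OCI-Ly3 against 6.73 for DB, and at 9.93 for HBL-1 against 6.51 for K422. IL12A, IL15, IL18 and IL4 were also called in both comparisons, with bounds in OCI-Ly3 over DB of 9.01, 2.81, 1.46 and 1.3-fold in that order. IL12B, the p40 chain, was detected in OCI-Ly3 alone, at least 20.8-fold above DB. IL23A, the p19 chain of IL-23, was the exception, with log2 differences of -1.12 ± 0.25 for OCI-Ly3 and -2.44 ± 0.25 for HBL-1 from their scan partners (SE; adjusted p = 0.00306 and 1.14e-05). IL4I1, the amino-acid oxidase, was 7.36 and 7.99 higher in the ABC-DLBCL lines.

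**Figure D2:**
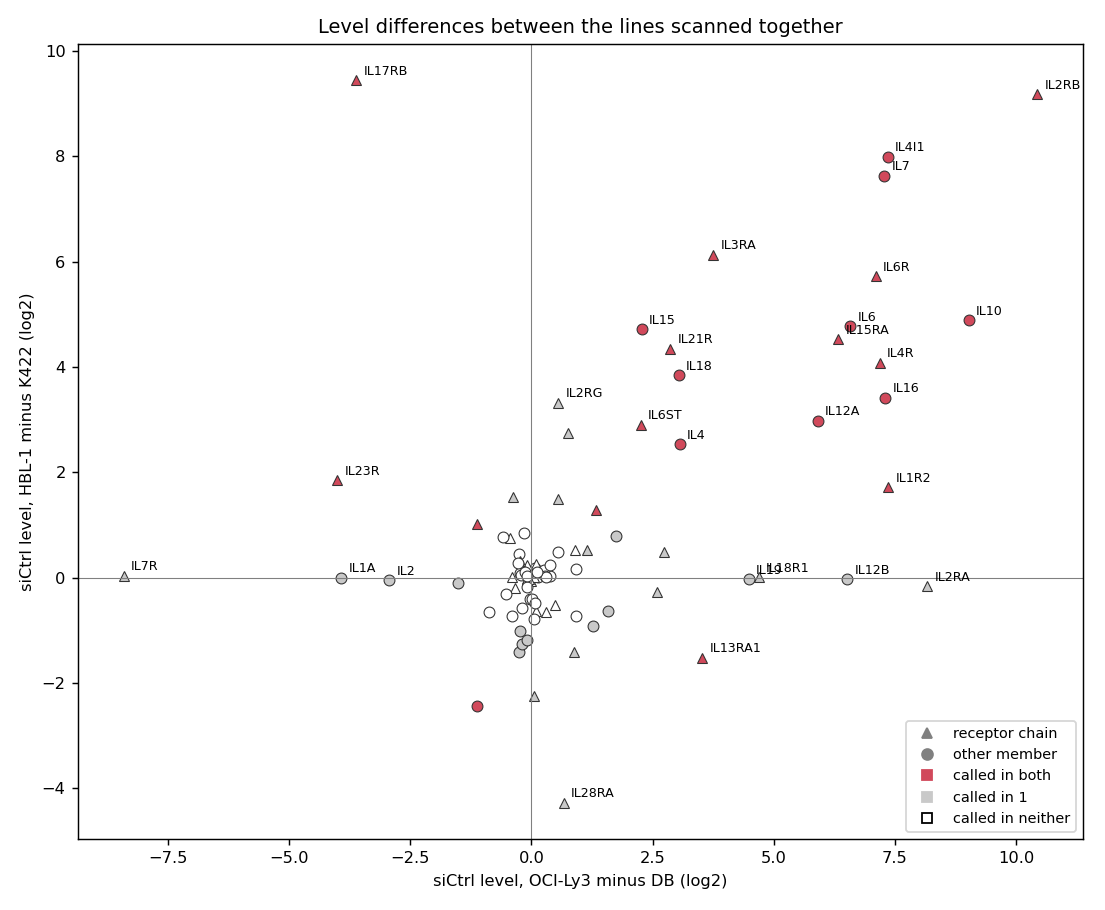
Log2 difference of the siCtrl level on the horizontal axis, OCI-Ly3 minus DB, and on the vertical axis, HBL-1 minus K422, for all 92 members (triangles for receptor chains), coloured by the number of comparisons in which the member was called and labelled where it was called and 1 difference was large. The upper right holds 18 members higher in both ABC-DLBCL lines, from IL12RB1 (1.34 and 1.29) to IL2RB (10.43 and 9.18), and the differences of undetected probes are not measured sizes.

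The response to silencing was the log2 ratio of silenced to siCtrl RNA within each array, and a member was called where the mean of both siRNAs in a line passed an adjusted p of 0.05 over all genes (limma) and a log2 change of 0.5, a 1.41-fold change. In HBL-1, 9 members rose and 6 fell (9.78% and 6.52% of members, beside 5.73% and 4.17% of all genes). In OCI-Ly3, 9 rose and 4 fell (9.78% and 4.35%, beside 2.8% and 1.62%). K422 had 2 and 3 (beside 2.34% and 2.1%) and DB 1 and 4 (beside 1.33% and 0.829%). The median change over the members was 0 for 3 lines and 0.02 for K422. At a 2-fold change the counts were 2 higher and 1 lower for HBL-1, 3 and 2 for OCI-Ly3, and 0 and 1 for both DB and K422, where the 1 was an unmeasured probe of IL15. Over all genes, 281 were higher and 220 lower in HBL-1 at this limit, 131 and 112 for OCI-Ly3, 45 and 87 for DB, and 134 and 148 for K422. With the replicate number as a random block, at the limit of 0.5, the counts of members fell to 3 in DB and 2 in K422.

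How well a member was measured differed between these 38 calls, which fell on 29 members. In 16 of them both channels were well above background on all 6 arrays, in 5 this held for only 1 channel, in 7 for some arrays, and in 10 neither channel was well above background on any array. Calls of this last kind made up 14.2% of the calls over all genes in the 4 lines. All 10 are given here by name only, with no change: IL12B, IL15, IL17RC and IL1R2 in DB, IL15 and IL17C in K422, IL19 in HBL-1, and IL17A, IL17RD and IL1F7 in OCI-Ly3. With probes dim on most arrays of a line left out, as an alternative, 13 calls were left for HBL-1, 7 for OCI-Ly3, 2 for K422 and 1 for DB.

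**Figure D3:**
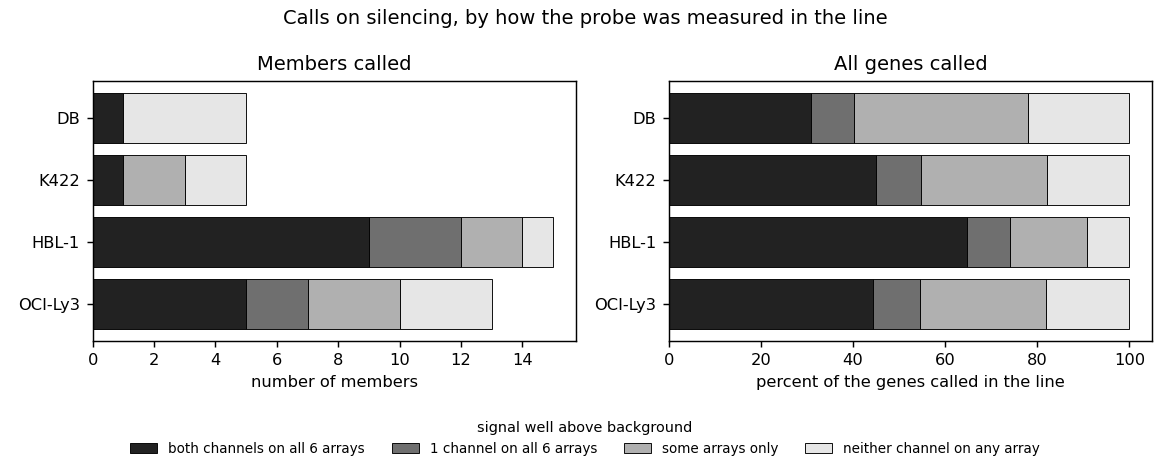
Number of members called on silencing in each line (left) and percent of all called genes (right), divided by whether silenced and siCtrl signals were well above background. Of the 5 calls in DB, 1 had both channels measured on all 6 arrays, against 9 of 15 in HBL-1.

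The 12 members with a call on fully measured probes were 5 cytokines (IL6, IL10, IL15, IL16, IL23A), 6 receptor chains (IL1R2, IL2RB, IL2RG, IL10RA, IL20RB, IL28RA) and IL4I1. IL6, IL10RA and IL20RB were called on such probes in more than 1 line. IL28RA and IL4I1 in HBL-1 and IL6 and IL23A in OCI-Ly3 kept their call under all 16 alternatives run for them, as did IL21 in OCI-Ly3, which was dim in siCtrl cells. Of the 6 fully measured members that met either condition, upstream sequences of 4 are shown because FOXP1 is a forkhead factor: the 3 called in more than 1 line, and IL28RA, which had the largest fully measured rise. They give the 250 bases before the RefSeq transcription start (GRCh38.p14, 5′ to 3′ on the strand of the gene). Capitals mark every match, on either strand, to the forkhead word TGTTTAC, its variant form TGTTTAT, the related word TATTTAC, its variant form TATTTAT or the STAT word TTCNNNGAA.
IL10RA, chr11:117989695-117989944, plus strand: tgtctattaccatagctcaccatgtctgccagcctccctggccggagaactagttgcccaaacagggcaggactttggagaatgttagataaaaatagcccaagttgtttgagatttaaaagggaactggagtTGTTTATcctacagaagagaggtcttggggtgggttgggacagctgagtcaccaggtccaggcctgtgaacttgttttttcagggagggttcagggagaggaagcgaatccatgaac
IL6, chr7:22726950-22727199, plus strand: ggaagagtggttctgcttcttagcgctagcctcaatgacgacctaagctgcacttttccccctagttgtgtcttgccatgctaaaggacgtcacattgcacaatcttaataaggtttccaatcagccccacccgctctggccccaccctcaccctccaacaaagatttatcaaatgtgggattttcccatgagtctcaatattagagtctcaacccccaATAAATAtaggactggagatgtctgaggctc
IL20RB, chr3:136957733-136957982, plus strand: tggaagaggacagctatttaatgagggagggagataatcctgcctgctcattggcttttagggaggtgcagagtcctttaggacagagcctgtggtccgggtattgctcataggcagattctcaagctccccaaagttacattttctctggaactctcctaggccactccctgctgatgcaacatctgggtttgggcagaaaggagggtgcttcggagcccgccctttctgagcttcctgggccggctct
IL28RA (now IFNLR1), chr1:24187290-24187539, minus strand: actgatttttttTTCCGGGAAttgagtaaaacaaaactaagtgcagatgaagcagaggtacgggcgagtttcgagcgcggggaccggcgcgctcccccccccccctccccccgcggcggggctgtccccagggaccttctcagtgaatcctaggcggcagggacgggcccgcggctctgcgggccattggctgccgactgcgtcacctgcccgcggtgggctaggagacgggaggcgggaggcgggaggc

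IL10RA held TGTTTAT 117 to 111 bases before its start and IL6 held ATAAATA, the reverse complement of TATTTAT, 31 to 25 bases before its start. IL28RA held TTCCGGGAA 238 to 230 bases before its start, while the windows of IL20RB, IL4I1 and IL23A held no match. Windows were given for 24 of the 29 called members, and 9 of these genes (IL10RA, IL16, IL18RAP, IL1F7, IL21, IL22RA1, IL22RA2, IL2RG and IL6) had a forkhead word in at least 1 of their windows, as did 14.8% of all 27305 genes. The STAT word was found for 3 of the 24 (IL19, IL1R1 and IL28RA) and for 8.09% of genes. A match to these letters is a description of the sequence and no evidence of binding.

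**Figure D4:**
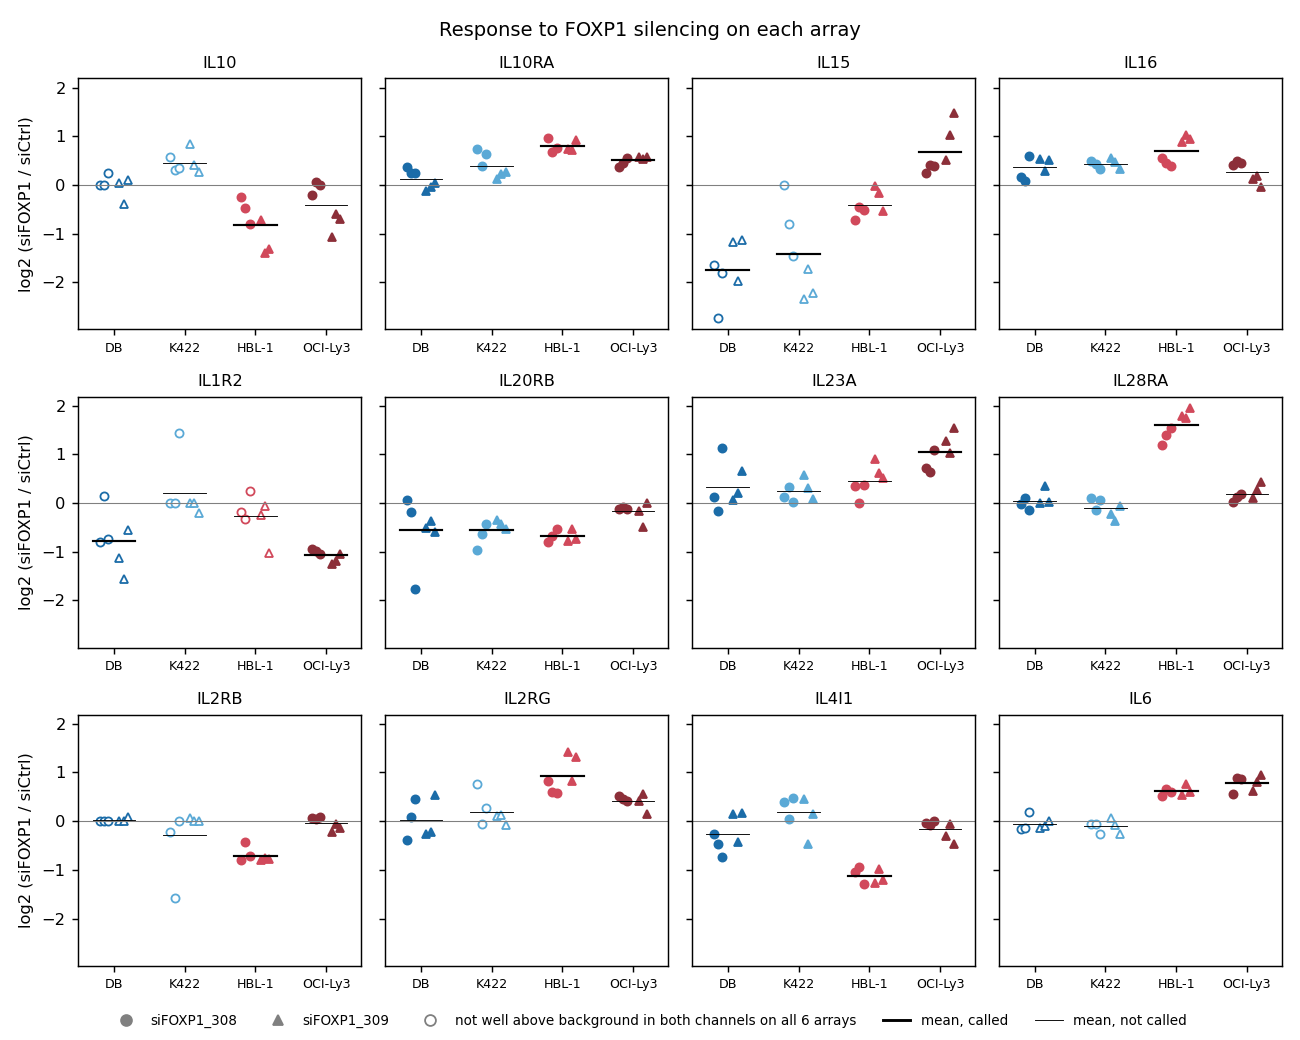
Log2 ratio of silenced to siCtrl RNA on each array for the 12 members called on fully measured probes, by line and siRNA, with the mean as a line (thick where called) and open symbols where a line was not measured in both channels on all 6 arrays. IL6 lies above 0 on all 12 arrays of HBL-1 and OCI-Ly3, and IL28RA on all 6 arrays of HBL-1 at 1.198 to 1.95, above every array of the other lines.

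The IL-10 system moved on both sides. IL10RA, the ligand-binding chain of the IL-10 receptor, lay between 0.67 and 0.97 on the 6 arrays of HBL-1 (median 0.75) and between 0.36 and 0.57 in OCI-Ly3 (median 0.54). Its mean rise was 0.80 ± 0.12 in HBL-1 (SD, n = 6; limma adjusted p = 1.52e-09) and 0.51 ± 0.08 in OCI-Ly3 (adjusted p = 1.15e-06). K422 passed the p limit below the fold limit (0.39 ± 0.24, adjusted p = 1.5e-05) and DB did not pass (0.12 ± 0.19, adjusted p = 0.118). The gene's other 2 probes gave 0.73 and 0.83 in HBL-1 and 0.39 and 0.78 in OCI-Ly3. The OCI-Ly3 call, at the fold limit, was lost without replicate 3, and with normexp background correction and median centring it was lost in both lines.

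IL10 ran from -1.39 to -0.26 in HBL-1 (median -0.75), below 0 on all 6 arrays, and fell by 0.82 ± 0.45 (adjusted p = 5.09e-06). In OCI-Ly3 the values ran from -1.07 to 0.06 with a mean of -0.42 ± 0.44 (adjusted p = 0.00646), short of the fold limit. In both lines the 3 siFOXP1_309 arrays averaged lower (-1.14 and -0.78) than the 3 siFOXP1_308 arrays (-0.51 and -0.05), a difference that was not tested. In K422, where IL10 was detected on 2 siCtrl and 5 silenced arrays, it was above 0 on all 6 arrays with a mean of 0.46 ± 0.22 (adjusted p = 0.00312), under the fold limit. IL10RB, the second chain, stayed between -0.09 and 0.13 as a mean in the 4 lines and was not called.

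Other chains of the IL-10 receptor family were called in 1 line (IL28RA, IL22RA1) or in 3 (IL20RB). IL28RA ran from 1.198 to 1.95 in HBL-1 (median 1.65), a rise of 1.61 ± 0.28 (adjusted p = 7.06e-12), while the other means were 0.19 for OCI-Ly3, 0.05 for DB and -0.105 for K422. The gene's dimmer second probe gave 1.99 in HBL-1. IL20RB, a chain of the receptors for IL-19, IL-20 and IL-24, was the only member called lower on fully measured probes in 3 lines. In DB it ran from -1.76 to 0.06 (median -0.45), in K422 from -0.97 to -0.35 (median -0.49), and the HBL-1 arrays ran from -0.81 to -0.54 (median -0.71). The means were -0.56 ± 0.64, -0.56 ± 0.22 and -0.68 ± 0.12 (adjusted p = 0.0211, 0.0142 and 0.00195), and OCI-Ly3, at -0.16 ± 0.17, was not called. IL20RB was below 0 on 22 of 24 arrays, and a value of -1.76 on 1 siFOXP1_308 array of DB stood apart from the other 5. The DB call was lost without replicate 3, which held that array (-0.25, adjusted p = 0.0545), and with a replicate block (adjusted p = 0.0524), and the K422 call without any 1 of the 3 replicates (-0.51 to -0.59, adjusted p from 0.0596 to 0.0963). IL22RA1, the private chain of the IL-22 receptor, was called higher in HBL-1, but its siCtrl signal was well above background on no array there, so the rise was at least 1.23-fold. That call was lost under 11 of 16 alternatives, among them a replicate block (adjusted p = 0.0555) and leaving out replicate 2 (adjusted p = 0.199) or replicate 3 (adjusted p = 0.0989), and the fitted value ran from 0.49 to 1.05 with 1 replicate left out. IL22RA2, the soluble IL-22 binding protein, was called higher in OCI-Ly3 with silenced signal well above background on 2 of 6 arrays and siCtrl signal on none, which allowed no bound on the change.

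In the common gamma chain system, receptor chains moved in opposite directions within HBL-1. IL2RG, the shared chain, ran from 0.57 to 1.41 (median 0.83) and rose by 0.93 ± 0.36 (adjusted p = 1.09e-05). IL2RB ran from -0.80 to -0.43 (median -0.76) and fell by 0.71 ± 0.14 (adjusted p = 0.000198). IL2RG was above 0 and IL2RB below 0 on all 6 arrays. In OCI-Ly3, IL2RG had a mean of 0.42 ± 0.14 (adjusted p = 0.0206), short of the fold limit, and IL2RB was at -0.04 ± 0.12. IL4R was at 0.37 ± 0.11 in HBL-1 (adjusted p = 0.00301) and not called, and IL15RA and IL7R were not called in any line. IL21R was not called either, although both replicate 2 arrays of DB were low, at -3.68 and -2.25, around a median of -0.08.

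IL13RA1, a chain of the receptors for IL-13 and IL-4, had the largest called rise of any member. It ran from 1.72 to 3.24 in HBL-1 (median 2.62), with a mean of 2.58 ± 0.60 (adjusted p = 2.87e-05). Silenced signals were well above background on all 6 arrays and siCtrl signals on 2, so the size of the fold rests on a dim control. Under 16 alternatives the fitted value ran from 0.5855 to 3.098. With siFOXP1_308 alone the mean was 2.06 and did not pass (adjusted p = 0.077). The gene's other 2 probes gave 2.49 and 1.39 there. In DB siCtrl signals were well above background on no array and silenced signals on 1, so no change was measured. In OCI-Ly3 it ran from 0.57 to 1.21, above 0 on all 6 arrays, with a mean of 0.91 ± 0.26 that did not pass (adjusted p = 0.0997), and K422 was at 0.05.

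Among the ligands of these receptors, IL21, a cytokine of follicular helper T cells, ran from 1.30 to 3.77 in OCI-Ly3 (median 2.18), above 0 on all arrays. Its mean rise was 2.42 ± 0.89 (adjusted p = 1.86e-05), with 2.405 for siFOXP1_308 and 2.435 for siFOXP1_309. Under the 16 alternatives the fitted value ran from 0.524 to 2.815, so its size is uncertain. The silenced channel was well above background on all 6 arrays and the siCtrl channel on 1, and IL21 was well above background on 1 silenced array of K422 and nowhere else. IL15 was fully measured in HBL-1, where it was not called (-0.40 ± 0.26, adjusted p = 0.0921), and in OCI-Ly3, where it ran from 0.24 to 1.48 (median 0.47) and rose by 0.68 ± 0.48 (adjusted p = 0.00969). With siFOXP1_308 alone the OCI-Ly3 call was lost (0.35), as it was without replicate 2 (0.66, adjusted p = 0.0738) or replicate 3 (0.55, adjusted p = 0.109). IL4 ran from -1.44 to -0.02 in HBL-1 and fell by 0.74 ± 0.49 (adjusted p = 4.23e-05), with the silenced signal well above background on 4 of 6 arrays. The IL4 call was lost with both normexp settings and with siFOXP1_308 alone. Its fitted value ran from -1.084 to -0.108 under the 16 alternatives. IL7 was at -0.43 ± 0.24 in HBL-1 (adjusted p = 0.0416), under the fold limit, and its call in K422 had 1 silenced array well above background and none in siCtrl, which allowed no bound on the change. The K422 call was lost under 12 of 16 alternatives, with a replicate block (adjusted p = 0.0638) and without replicate 2 (adjusted p = 0.137) or replicate 3 (adjusted p = 0.102) among them, and the fitted value ran from 0.21 to 0.78 with 1 replicate left out.

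IL6 rose in both ABC-DLBCL lines. Its arrays ran from 0.51 to 0.76 in HBL-1 (median 0.60) and from 0.55 to 0.94 in OCI-Ly3 (median 0.83). The rises were 0.61 ± 0.09 (adjusted p = 5.01e-07) and 0.77 ± 0.16 (adjusted p = 1.48e-07), and IL6 was well above background on no array of DB or K422. The HBL-1 call was lost with normexp background correction. Its receptor chains were not called, with IL6R at 0.23 (HBL-1) and -0.11 (OCI-Ly3) and IL6ST, which is gp130, at -0.41 (HBL-1). IL11 and IL11RA were not called in any line.

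In the IL-12 and IL-23 group, IL23A ran from 0.64 to 1.54 in OCI-Ly3 (median 1.06) and rose by 1.05 ± 0.34 (adjusted p = 2.05e-05). The means of HBL-1 (0.46), DB (0.34) and K422 (0.24) were not called. IL12B, the partner chain of IL23A, was measured on all arrays of OCI-Ly3 and not called (0.24 ± 0.25), and IL12A was at -0.42 ± 0.46 in HBL-1 (adjusted p = 0.00139) and -0.23 in OCI-Ly3. IL23R, the private receptor chain of IL-23, ran from -2.72 to -0.82 in OCI-Ly3 and was called lower, but its silenced signal was on no array well above background and its siCtrl signal on 1, so the fall was at least 1.15-fold. IL23R was measured in DB, where its mean was 0.45 ± 0.15, and in HBL-1, where it was -0.47 ± 0.15. Neither was called (adjusted p = 0.122 and 0.0528). IL12RB1 and IL27RA stayed between -0.18 and 0.24 as means in the 4 lines.

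IL27, the p28 chain of IL-27, and IL16 were the only members that passed the p limit in the same direction in all 4 lines. IL27 was below 0 on 24 of 24 arrays, from -0.62 to -0.16, with line means of -0.45 ± 0.12 (HBL-1), -0.40 ± 0.12 (DB), -0.38 ± 0.18 (OCI-Ly3) and -0.35 ± 0.11 (K422; adjusted p from 1.03e-05 to 0.000332). IL16 was above 0 on 23 of 24 arrays, with means of 0.71, 0.36, 0.27 and 0.43 in the same order (adjusted p from 4.78e-08 to 0.00224), and only HBL-1 reached the fold limit. Its second probe gave 0.72, 0.61, 0.05 and 0.72 in that order, so it showed little change in OCI-Ly3. The HBL-1 call was lost with normexp and median centring, in the mean over all probes and with siFOXP1_308 alone. Among all genes 1.84% passed the p limit upwards and 1.79% downwards in all 4 lines. With silenced RNA in the same dye throughout, a shift of this size in every line cannot be told apart from a dye effect of the probe.

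The IL-1 and IL-17 families held 1 call on a fully measured probe. IL1R2, the IL-1 decoy receptor, ran from -1.25 to -0.94 in OCI-Ly3 (median -1.04) and fell by 1.08 ± 0.12 (adjusted p = 0.000312), and its second probe gave -1.65. IL18RAP, the accessory chain of the IL-18 receptor, ran from -1.56 to -0.39 in OCI-Ly3 and fell by 0.65 ± 0.46 (adjusted p = 0.00248). Only its siCtrl signal was well above background on all 6 arrays there. The IL18RAP call was lost under 6 of 16 alternatives, among them both normexp settings, siFOXP1_309 alone and leaving out replicate 1. Its partner IL18R1 was at -0.37 in OCI-Ly3 (adjusted p = 0.00213). IL1RAP, the IL-1 receptor accessory chain, rose in HBL-1 by 0.87 ± 0.30 on the probe used, but its other 3 probes gave -0.41, -0.23 and 0.26, the first of them as bright, and the call was lost in the mean over all probes. IL1R1 was called lower in HBL-1 with siCtrl signal on 1 array and silenced signal on none, and the call was lost without replicate 1. IL17RC in OCI-Ly3 (0.86 ± 0.45) was detected on 1 siCtrl and 2 silenced arrays, and IL17RD in K422 (-0.67 ± 0.50) on 4 and 2. The IL17RD call was lost under 12 of 16 alternatives, including a replicate block (adjusted p = 0.0577) and leaving out any 1 of the 3 replicates (-0.57 to -0.76, adjusted p from 0.0543 to 0.16). IL17RA and IL17RE were not called in any line, nor were IL18 and IL18BP. IL17D passed the p limit below the fold limit in DB (-0.47) and OCI-Ly3 (-0.46).

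IL4I1 gave the largest fall on a fully measured probe. In HBL-1 it ran from -1.30 to -0.95 (median -1.13) and fell by 1.12 ± 0.15 (adjusted p = 3.05e-07), with siFOXP1_308 at -1.10 and siFOXP1_309 at -1.15. In OCI-Ly3, where its siCtrl level was 15.27, the mean was -0.16 ± 0.19 and was not called, nor was it in the GCB-DLBCL lines (-0.27 in DB, 0.18 in K422).

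The subtype difference asked whether the response of the ABC-DLBCL lines differed from that of the GCB-DLBCL lines, as the mean of HBL-1 and OCI-Ly3 minus the mean of DB and K422 in the same limma fit. It was called for 8 members in the positive direction (8.7%, beside 1.4% of all genes) and 3 in the negative (3.26%, beside 0.866%). Because DB was scanned with OCI-Ly3 and K422 with HBL-1, the difference could also be read within each scan. IL6 differed by 0.78 ± 0.06 (SE; adjusted p = 2.14e-07), with 0.83 and 0.72 within the scans (OCI-Ly3 minus DB first, here and below). In DB and K422 neither channel of IL6 was well above background on any array, so these are not measured sizes. The difference for IL2RG was 0.56 ± 0.12, within scans 0.39 and 0.74. IL2RG was detected on 4 siCtrl and 5 silenced arrays of K422 and on all arrays of the other lines. IL13RA1 was called in the positive direction, with HBL-1 2.53 above K422. In DB its siCtrl signal was well above background on no array and its ratios ran from -2.62 to 1.81, so OCI-Ly3 minus DB was not measured.

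IL28RA and IL4I1 were measured on all arrays of every line and were uneven between the scans. IL28RA (0.93 ± 0.06, adjusted p = 3.74e-08) split into 0.14 and 1.71 and IL4I1 (-0.60 ± 0.10) into 0.11 and -1.30 within the scans, and in both the larger part lay with HBL-1. IL10 (-0.85 ± 0.10, within scans -0.42 and -1.28) compared lines that expressed it with 2 lines at or near background. The other 5 also rested on ratios that were unmeasured in some lines and are given here without a size. IL15, IL17RD, IL21 and IL22RA2 were called in the positive direction and IL23R in the negative. Neither channel was well above background on any array of DB and K422 for IL15, and of OCI-Ly3, HBL-1 and DB for IL17RD. In OCI-Ly3, where IL21, IL22RA2 and IL23R were called on silencing, the siCtrl signal was detected on 1 array for IL21, none for IL22RA2 and 1 for IL23R. With a replicate block the subtype calls of IL21 and IL17RD were lost (adjusted p = 0.0825 and 0.0863). In limma on the 4 line means, 2 per subtype, 0 members were called (adjusted p = 0.935 for each of the 11).

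**Figure D5:**
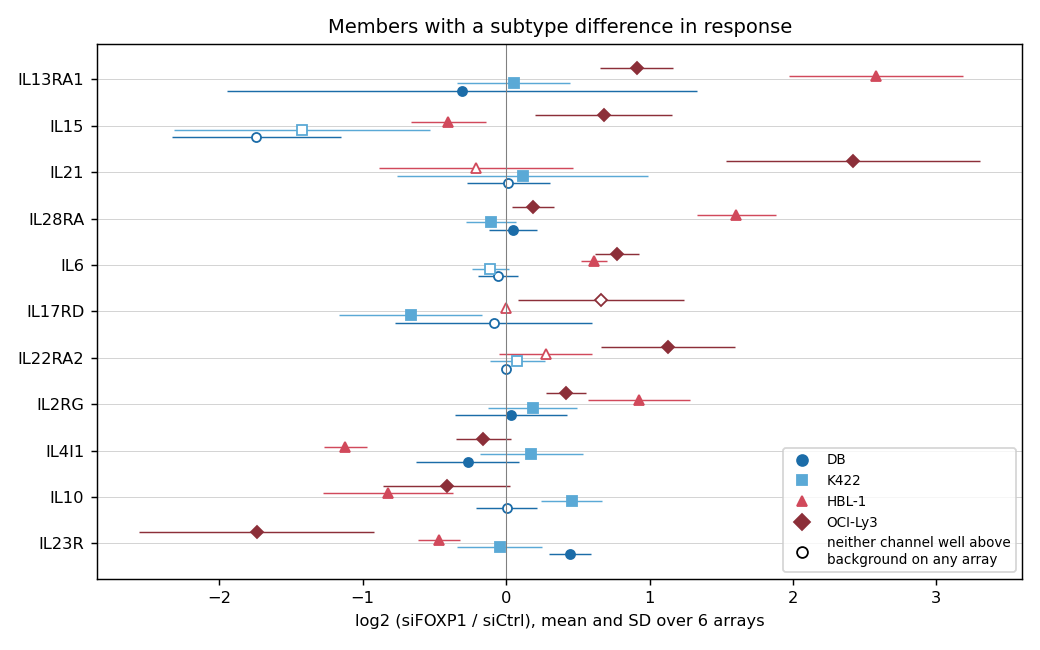
Mean log2 ratio with SD over 6 arrays in each line for the 11 members called for the subtype difference, with open symbols where neither channel was well above background on any array. IL6 lies above 0 in HBL-1 and OCI-Ly3 and near 0 in the lines that did not express it, while IL28RA and IL4I1 stand apart in HBL-1 only.

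Signalling partners of these receptors were described from a list of 49 genes whose names do not begin with IL. Of these, HBL-1 had 6 that rose and 4 that fell (beside 5.73% and 4.17% of all genes), K422 had 1 and 1 (beside 2.34% and 2.1%), and DB had 0 and 1 (beside 1.33% and 0.829%). OCI-Ly3 had none called in either direction by limma (beside 2.8% and 1.62%), with 19 at an unadjusted p under 0.05, as had 8809 of all 30141 genes tested. The risers in HBL-1 were the kinases JAK2 (0.65 ± 0.22, adjusted p = 2.08e-08) and TYK2 (0.52 ± 0.18), STAT2 (0.76 ± 0.15), the common beta chain CSF2RB (0.58 ± 0.22), the JAK inhibitor SOCS1 (0.74 ± 0.42) and IRAK3, a brake on MYD88 signalling (1.36 ± 0.34, siCtrl signal on 5 of 6 arrays). SOCS1 was also the gene that rose in K422 (0.51 ± 0.21), and the K422 fall was an unmeasured probe of EBI3. SOCS3, an inhibitor of gp130 and JAK signalling, ran from -2.63 to -0.25 in HBL-1 and fell by 1.40 ± 1.01 (adjusted p = 6.15e-08). OSM, SOCS4 and TSLP also fell there, by 0.64, 0.52 and 0.55, TSLP from 5 arrays, after an outlier spot was dropped, with siCtrl signal on 3. EBI3, the partner chain of IL27, ran from -1.28 to -0.19 in DB and fell by 0.78 ± 0.41 (adjusted p = 8.33e-05), and in HBL-1 it was at -0.49 ± 0.22 (adjusted p = 0.00119), under the fold limit, while OCI-Ly3 was at -0.03. JAK1, JAK3, STAT3, STAT6 and MYD88 were called in no line.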

How the data were processed

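Total RNA was measured on 24 Agilent 2-colour arrays (6 slides, 2 scans), grouped by the sample titles. Scan 1 held DB and OCI-Ly3 and scan 2 held K422 and HBL-1. The authors' scanner files hold Cy3 and Cy5 intensity values that, per the file headers, Feature Extraction (10.5.1.1 in scan 1, 10.7.3.1 in scan 2) had background-subtracted and dye-normalized within each array. The deposited LogRatio is the log10 of Cy5 (siCtrl) over Cy3 (silenced), and dim spots carry surrogate values. The deposited log2 value table, made by the authors in GeneSpring, was used as an alternative only. Its columns correlated with the scanner ratios at 0.8036 to 0.9978, which gave scale and direction, their medians ran from -0.173 to 0.0669, and how they were centred stays unknown. File coordinates are hg18.

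From these, log2 (silenced over siCtrl) was computed as -LogRatio/log10(2), without control spots and outlier spots, and spots of a probe were averaged. The brightest probe stood for a gene (123 probes for the 92 members, 24 with more than 1). Ratios were fitted over all genes in limma 3.58.1 (R 4.3.3) with 8 line-by-siRNA means, and p-values were Benjamini-Hochberg adjusted over all genes. For siCtrl levels, the mean log2 signal of both channels was quantile-normalized across arrays, and the ratio within each array was kept (Aquantile). The Cy5 level was rebuilt from that mean and ratio, so the silenced channel entered it. Levels were averaged over arrays of a line that share a replicate number, to 3 values per line. This was done since the sources do not say whether such arrays held the same siCtrl RNA. Arrays of a line with the same replicate number correlated in their deviations from the group means at 0.0468 to 0.284 over all genes, and at 0.114 to 0.573 over genes well above background on most arrays, so a replicate block was run and its p stands beside named calls that it ended. Arrays have no read depth, so precision rests on how many were run. Symbols were updated through RefSeq tables (92 of 92 matched). The limma fits for silencing, siCtrl level and the subtype difference were run on simulated data with known changes. The simulated noise was independent, without replicate correlation or surrogate values, and the other statistics were not simulated.

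The members and lists were chosen with earlier results of these data known. Named, with values where measured, are members called in a line or for the subtype difference and pathway genes called in a line. Members detected on all siCtrl arrays of a line are named in part, and not all of them with values. Uncalled pathway genes named at the end, and undetected members, were chosen after their values were seen. Alternatives covered background correction, normalization, the value table, dim and outlier spots, probe choice, blocks, single siRNAs, each line alone, the methods' t-test, a log2 limit of 1, and leaving out each replicate.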

Additional observations from a re-analysis of the deposited data

Results flagged for a closer look

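In 4 of the 38 line-by-gene groups of 6 arrays with a call, 1 array lay far from the other 5, by a criterion that chance alone meets in some groups. IL20RB in DB had an array at -1.764, with the nearest at -0.60. IL2RB in HBL-1 had one at -0.4285 (nearest -0.71), IL17RC in OCI-Ly3 one at -0.0331 (nearest 0.92) and IL18RAP in OCI-Ly3 one at -1.557 (nearest -0.72).

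The response differed between the ABC-DLBCL and GCB-DLBCL lines, by the limma contrast itself, for 11 members. The difference was 0.925 for IL28RA and -0.5962 for IL4I1, measured on all arrays, and 0.5634 for IL2RG, measured on most. It was 0.7756 for IL6 and -0.8507 for IL10, against GCB-DLBCL lines at or near background, so neither is a measured size. The fit gave 1.873 for IL13RA1, 1.721 for IL15, 1.038 for IL21, 0.7073 for IL17RD, 0.6632 for IL22RA2 and -1.305 for IL23R, which rest on lines where 1 or both channels were not above background on most or all arrays and are not measured sizes.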

How the results depend on the processing

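Counts of members called moved with several choices, and both normexp settings replaced the scanner's background correction and its dye normalization together. With normexp and loess, 1 member was called in DB, 0 in K422, 7 in HBL-1, 4 in OCI-Ly3 and 5 for the subtype difference, and with normexp and median centring 0, 0, 8, 4 and 6. The calls of IL1R2 in DB and IL1R1 in HBL-1 turned to 0.000718 and 0.001666 under the latter. With normexp and quantile, 21 and 17 members differed in siCtrl level (OCI-Ly3 minus DB, then HBL-1 minus K422). Without dim probes the silencing counts were 1 in DB, 2 in K422 and 7 in OCI-Ly3, and the value table called 10 in DB. With a replicate block 3 members were called in DB, 2 in K422, 14 in HBL-1, 10 in OCI-Ly3 and 9 for the subtype difference. The block ended 9 silencing calls (beside those named above, IL12B in DB, IL17C in K422 and IL17A, IL17RD and IL1F7 in OCI-Ly3, all on unmeasured probes), 2 subtype calls and the lower siCtrl levels of IL17F and IL1F6 in HBL-1, and no other named call. With slide as a random block K422 had 2 and OCI-Ly3 had 8. Averaging the 2 siRNA arrays gave 2 in DB, 2 in K422 and 7 for the subtype difference. Each line fitted alone gave 1 in DB and 2 in K422. The methods' t-test after Benjamini-Hochberg adjustment called 0 members in DB and 1 in K422, and FOXP1 in DB did not pass it (log2 -1.998). With siFOXP1_308 alone the counts were 2 in DB, 3 in K422, 6 in HBL-1, 8 in OCI-Ly3 and 4 for the subtype difference, and with siFOXP1_309 alone 3 in DB and 2 in K422. At a log2 limit of 1 they were 1, 1, 3, 5 and 4 in the same order. In limma on the 4 line means 0 members were called for the subtype difference. Leaving out each replicate gave 2 to 5 in K422 (2 without replicate 3), 8 to 12 in OCI-Ly3 (8 without replicate 3), 6 to 7 in DB and 14 to 17 in HBL-1. Over named calls, 409 silencing values kept direction and threshold under an alternative and 197 kept only the direction. The causes were not tested.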
